A study of Mus musculus with 11 samples.

Results

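Cd44 and 7 genes that make or break down its ligand hyaluronan were followed through ovarian ageing in the mouse. The members were the rows of the deposited count table whose symbol was Cd44, Has1, Has2, Has3, Hyal1, Hyal2, Cemip or Tmem2. They make up 8 of the 54232 genes in the table, and all 8 passed the filter on low counts that left 20331 genes. Cd44 was chosen by its level in these same libraries, which was seen to be higher with age, so its values are a description and carry no test. The other 7 members were listed for their function, with earlier results of these data known, and were tested.

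Ovaries of wild-type (WT) mice were compared at 3 ages by bulk sequencing of mRNA, with reproductively young, old and post-reproductive states as the design's categories. There were 4 libraries of the 2 month group, 4 of the 18 month group and 3 of the 24 month group, all untreated as far as labelled, and neither strain nor pooling of animals is named. The library names read 8 weeks for the 2 month group and 22 months for the 24 month group, and the groups are called here by the sample titles. Total counts per library were 26061630 to 33407509, apart from 5231724 and 8892915 in 18 month replicates 3 and 4. Those 2 libraries differed by little more than counting noise (chi-square 1.10 per gene, while no other 2 libraries of one age came below 28.7). They were summed into 1 sample, which leaves 4, 3 and 3 samples. Nothing in the labels says that samples came from separate animals, so p-values measure the spread between these samples, which may be technical. As a check of the tissue, the granulosa cell factor Foxl2 was at 138 to 228 CPM (counts relative to library size, after TMM scaling) over all samples. The oocyte gene Zp3 was at 24.8 to 59.9 CPM at 2 months and 0.711 to 4.40 CPM at 24 months.

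Hyaluronan is a long unsulfated sugar chain of the extracellular matrix, extruded at the cell surface by the synthases Has1, Has2 and Has3 from nucleotide sugars. Cells bind it through receptors such as Cd44, a membrane glycoprotein of leukocytes, stromal cells and epithelia. Cemip, a secreted hyaluronan-binding protein, Tmem2, a related membrane protein, and Hyal2, anchored at the cell surface, take part in the first cleavage of the chain. Hyal1 cuts the fragments further in lysosomes. In the ovary, hyaluronan made by cumulus cells swells the matrix around the oocyte before ovulation, with Has2 as the main synthase there.

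In the deposited coordinates (mm10), Cd44 (ENSMUSG00000005087) lies on the minus strand of chromosome 2 at 102811141 to 102901665. Hyal2 (ENSMUSG00000010047) and Hyal1 (ENSMUSG00000010051) are neighbours on the plus strand of chromosome 9, at 107567945 to 107572779 and 107576927 to 107581710. Cemip (ENSMUSG00000052353) is on the minus strand of chromosome 7 at 83932857 to 84086502. Tmem2 (ENSMUSG00000024754) is on chromosome 19 at 21778342 to 21858327 and is named Cemip2 in GENCODE release M21. The synthases lie apart from each other, with Has1 on chromosome 17, Has2 on chromosome 15 and Has3 on chromosome 8. All 8 are annotated as protein coding, and each count covers all exons of a gene, so the splice forms of Cd44 (9 transcripts in GENCODE M21) are not told apart.

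Besides Cd44, Hyal1 and Cemip were the 2 members whose 2 and 24 month samples did not overlap, as was so for 42.1% of all genes. The sequences just before the start sites of Cd44, Hyal1 and Cemip are shown as RefSeq gives them for GRCm38.p6. They are those of Cd44 at chr2:102901666-102901915 on the minus strand, Hyal1 at chr9:107576700-107576926 on the plus strand and Cemip at chr7:84086506-84086755 on the minus strand. Each runs 5′ to 3′ towards the start site, and capitals mark every match to the motifs searched on both strands.
Cd44: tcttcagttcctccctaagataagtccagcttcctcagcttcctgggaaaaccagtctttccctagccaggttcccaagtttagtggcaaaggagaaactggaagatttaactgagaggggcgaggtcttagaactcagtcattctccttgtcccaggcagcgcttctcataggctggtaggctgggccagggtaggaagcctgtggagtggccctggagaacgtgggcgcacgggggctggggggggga
Hyal1: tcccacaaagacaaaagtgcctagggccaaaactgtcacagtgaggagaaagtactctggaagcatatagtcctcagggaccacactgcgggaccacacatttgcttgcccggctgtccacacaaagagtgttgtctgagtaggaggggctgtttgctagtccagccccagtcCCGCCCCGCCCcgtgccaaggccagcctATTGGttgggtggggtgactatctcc
Cemip: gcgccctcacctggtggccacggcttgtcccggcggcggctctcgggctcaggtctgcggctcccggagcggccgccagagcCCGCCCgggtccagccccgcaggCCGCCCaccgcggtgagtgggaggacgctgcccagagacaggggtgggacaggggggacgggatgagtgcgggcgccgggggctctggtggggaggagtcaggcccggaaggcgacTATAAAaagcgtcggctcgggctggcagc
The motifs were the TATA box (TATAAA), the CCAAT box (CCAAT), the GC box (GGGCGG), the AP-1 site (TGANTCA) and the CRE (TGACGTCA). None of them occurred in the 250 bases before the start of Cd44. Hyal1 had 1 CCAAT box and 2 GC boxes that overlap by 1 base. Cemip had 2 GC boxes and a TATA box whose first base lies 29 bases before the start, in a stretch of 75.2% G and C, against 56.4% for Cd44 and 56.8% for Hyal1. Of the 8 members, 5 matched an entry (Has2, Has3 and Tmem2 did not), and of these Has1 had 1 CRE and 1 CCAAT box and Hyal2 had 1 GC box. Among 32851 mouse start sites in the same table, the 250 bases upstream held a TATA box in 12.4%, a CCAAT box in 33.8%, a GC box in 32.7%, an AP-1 site in 6.75% and a CRE in 1.55%. These matches describe the letters and were not tested as sites.

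Cd44 was higher at each later age. In 2 month replicates 1 to 4 it was at 16.9, 15.3, 12.5 and 16.0 CPM. At 18 months it was at 31.3, 31.0 and 32.0 CPM in replicate 1, replicate 2 and the summed sample. At 24 months the 3 samples were at 48.0, 48.3 and 50.3 CPM. The ages did not overlap at any step, and the samples of each later age lay close together. The means were 15.2 ± 1.88 (SD, n = 4), 31.4 ± 0.517 (n = 3) and 48.9 ± 1.24 CPM (n = 3). The log2 fold change was 1.05 (SE 0.109) from 2 to 18 months, 1.69 (SE 0.109) from 2 to 24 months and 0.64 (SE 0.117) from 18 to 24 months. These values chose the gene. Beside them, the 2 ages did not overlap for 27.3%, 42.1% and 12.1% of all 20331 genes in the 3 comparisons.

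At the later ages Cd44 varied between samples by no more than counting error. Over the 3 ages in turn its counts per sample were 309 to 526, 483 to 983 and 1287 to 1729. The coefficient of variation was 1.64% at 18 months and 2.53% at 24 months, while counting alone gives 3.75% and 2.55%. At 2 months it was 12.4%, above the 4.80% from counting, with replicate 3 the lowest.

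**Figure D1:**
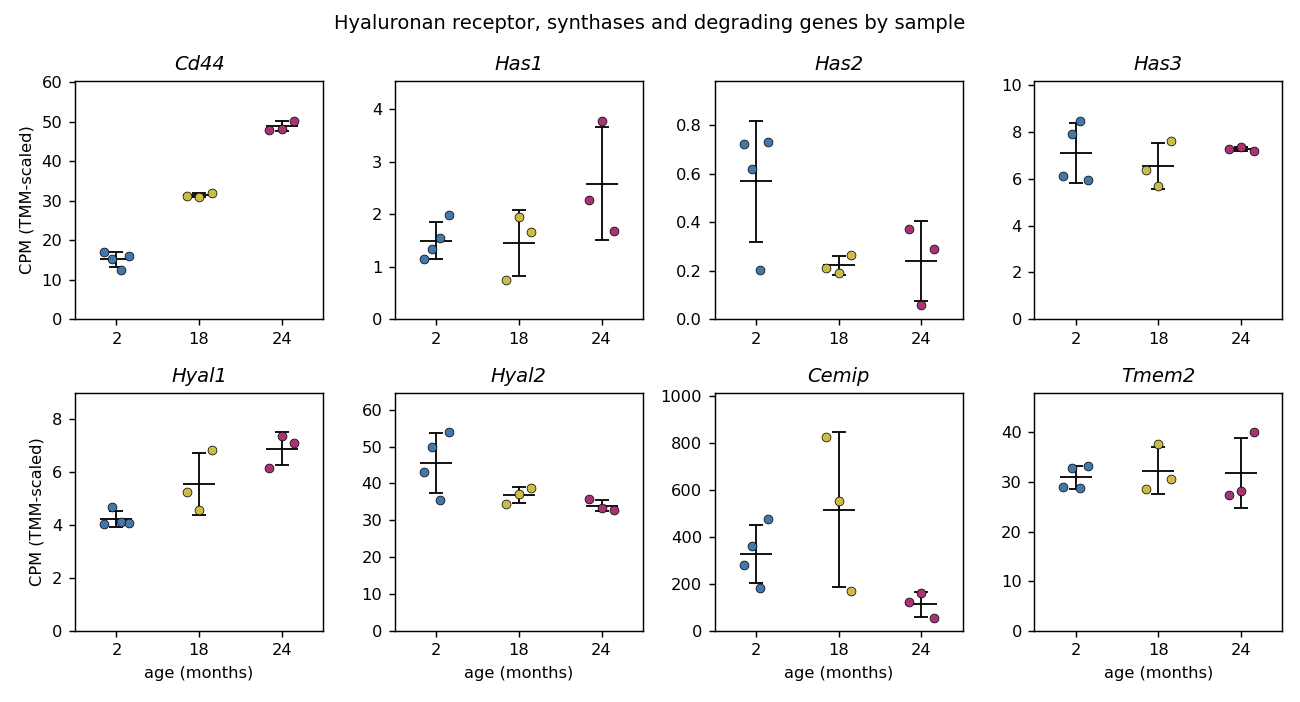
CPM of the 8 members in each of the 10 samples (points) at 2, 18 and 24 months, with the mean and SD of each age (bars). Each panel has its own axis from 0. The Cd44 points form 3 separate groups near 15.2, 31.4 and 48.9 CPM, while the points of Has3 and Tmem2 overlap between ages.

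Macrophages, T cells, epithelium and fibroblasts are known to carry Cd44, and the summed levels of their marker lists were also above those of 2 months in every sample of the later ages. In bulk samples, fewer or more cells of a type and less or more RNA per cell cannot be told apart. Over the 3 ages in turn, the summed level of 10 macrophage markers was 340 to 471, 718 to 1051 and 952 to 1122 CPM. Of these markers, 8 were called higher at 18 months and all 10 at 24 months against 2 months. Beside this and the counts that follow, 6.04% and 19.2% of all tested genes were called higher. None of the macrophage markers was called between 18 and 24 months, where only 1 of all 20331 genes was. For 10 T cell markers the sums were 9.45 to 13.8, 30.6 to 43.3 and 21.7 to 61.8 CPM, with 6 and 9 called higher. Surface epithelium (9 markers) summed to 132 to 173, 262 to 676 and 241 to 741 CPM, with 6 called higher at each later age. Fibroblast markers (5 genes) summed to 1415 to 1870, 2322 to 3940 and 2535 to 5024 CPM, with 2 and 3 called higher. The macrophage, T cell, epithelial and fibroblast sums overlapped between 18 and 24 months. Cd44 did not overlap between these ages, but it was chosen for its rise, and 12.1% of all genes did not either. Their part in the level of Cd44 was not tested.

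For the smaller marker lists, B and plasma cell genes (6 markers) summed to 2.80 to 7.55, 17.9 to 64.7 and 19.7 to 213 CPM, with 1 and 3 called higher. Here too, 6.04% of all tested genes were called higher at 18 months and 19.2% at 24 months. Neutrophil markers (6 genes, 4 tested) summed to 2.34 to 4.83, 5.27 to 11.5 and 6.77 to 8.99 CPM, with 1 called higher at each later age, and their defining gene Ly6g was at 0 in 9 of 10 samples. Mast cell markers (6 genes, 4 tested) summed to 0.311 to 4.69, 0.199 to 2.45 and 2.36 to 165 CPM. All 4 tested were called higher at 24 months, and Fcer1a was at 0 in 3 samples. Oviduct epithelium markers summed to 5.89 to 16.4, 46.1 to 135 and 31.7 to 861 CPM, with 3 and 6 of 6 called higher. Pax8 and Foxj1 were each at 0 in 1 sample of 2 months. Whether these markers came from attached tissue was not tested. Lymphatic endothelium summed to 87.5 to 137, 164 to 286 and 158 to 238 CPM, with 1 of 4 called higher at each later age, and blood endothelium to 365 to 761, 503 to 511 and 359 to 493 CPM, with none of 4 called by edgeR. As a description over the 10 samples, which share the age steps, the correlation of log2 levels of Cd44 was 0.929 with the macrophage sum and 0.827 with the fibroblast sum. With the age means removed it was -0.115 and 0.028. Over all 13 lists the values with the age means removed ran from -0.784 for blood endothelium and -0.478 for neutrophils to 0.465 for granulosa cells. All values with the age means removed rest mainly on the 2 month samples, since Cd44 varied later by no more than counting error. They cannot show whether Cd44 follows a cell type within an age.

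**Figure D2:**
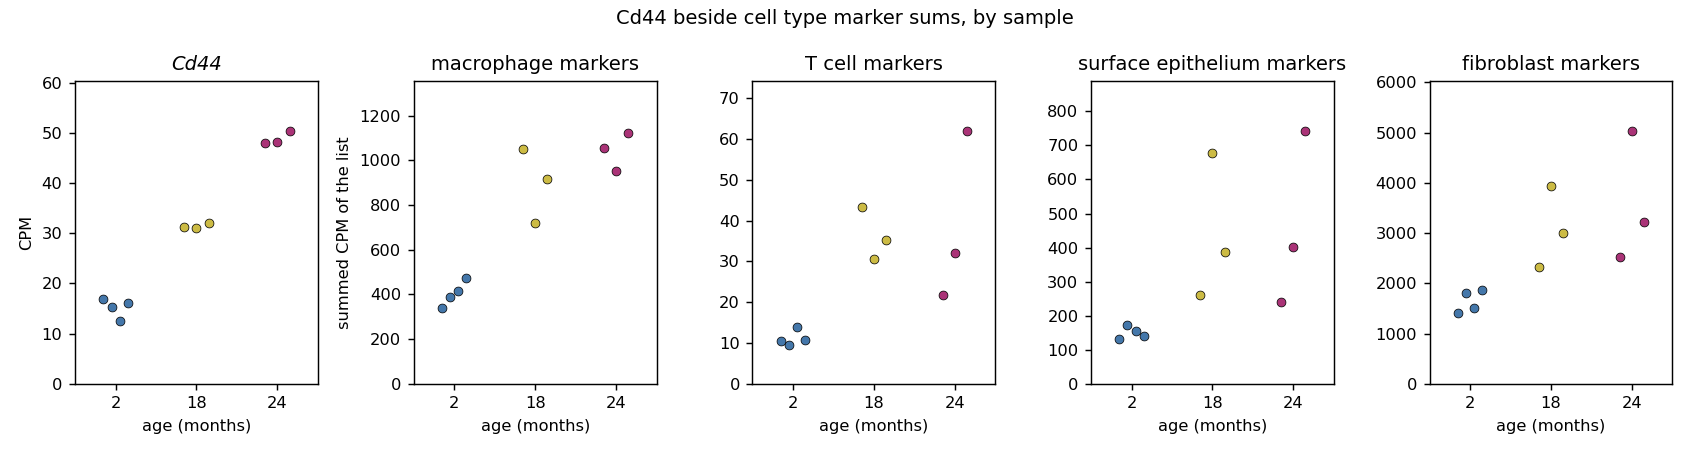
CPM of Cd44 (left panel) and summed CPM of the macrophage, T cell, surface epithelium and fibroblast marker lists (other panels) in each sample by age in months, axes from 0. Cd44, which was chosen for its rise, separates all 3 ages. Each marker sum separates 2 months from the later ages while 18 and 24 months overlap.

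Genes whose log2 CPM was among the closest to Cd44 over the 10 samples, among 11792 named genes with a mean of at least 5 CPM, were St8sia1 (r = 0.978), Arhgap36 (0.977), Dram1 (0.975) and Dcn (0.973). St8sia1, a ganglioside sialyltransferase, went from 3.00 ± 0.292 to 10.4 ± 2.39 and 16.4 ± 3.07 CPM at the 3 ages. Dcn, the small matrix proteoglycan decorin, went from 235 ± 46.8 to 740.5 ± 97.4 and 1318 ± 352 CPM. The r values are a description over 10 samples that share the age steps. With the age means removed, Nup54 (r = 0.967), Utp15 (0.953), Cmss1 (0.950), Selenoh (0.936) and Pdss1 (0.933) were nearest to Cd44. The second ranking rests on small deviations, the largest of them at 2 months.

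Among the synthases, no difference between ages passed the test. Has3 was the most abundant of them per length of exon, Has1 the next and Has2 the lowest, in every sample. Has3 was at 6.10, 7.92, 8.49 and 5.94 CPM at 2 months, at 6.38, 5.68 and 7.62 CPM at 18 months and at 7.28, 7.37 and 7.21 CPM at 24 months. Its ages overlapped throughout. The log2 fold change was 0.035 (SE 0.191) from 2 to 24 months, with edgeR adjusted p = 0.898. Given that SE, differences several times larger in either direction could also have gone undetected. The end of Has3 shares 5.52% of its exon bases with Chtf8 on the other strand, a gene that was itself lower at 24 months (log2 fold change -0.43, SE 0.0883).

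Has1 was at 1.14, 1.34, 1.54 and 1.98 CPM at 2 months and at 0.744, 1.95 and 1.66 CPM at 18 months. At 24 months it was at 2.28, 3.78 and 1.69 CPM, so that 2 of 3 samples lay above every younger one. From 2 to 24 months the log2 fold change was 0.78 (SE 0.390), which did not pass (edgeR adjusted p = 0.141). It passed with limma-voom and sample weights (log2 fold change 1.10, adjusted p = 0.0192).

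Has2, the synthase of the cumulus matrix, was near the lower limit of detection. Its 2 month samples had 21, 20, 5 and 24 counts (0.724, 0.622, 0.203 and 0.731 CPM). The 18 month samples had 6, 6 and 4 counts and the 24 month samples 10, 2 and 10, or 0.057 to 0.373 CPM over both ages. The 2 month sample with 5 counts, replicate 3, lay within the later range, and the other 3 lay above it. The log2 fold change was -1.39 (SE 0.609) at 18 months and -1.27 (SE 0.582) at 24 months against 2 months, with edgeR adjusted p = 0.161 and 0.113. Has2 entered the test mainly through its 2 month counts, so its tests against that age are a description and no support for a fall. With limma-voom the log2 fold change at 24 months was -2.56 (adjusted p = 0.0049), on 2 to 10 counts per 24 month sample. The antisense gene Has2os shares 4.29% of its exon bases and had 0.216 ± 0.0508 CPM in the youngest group and 0.107 ± 0.0468 CPM in the oldest.

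Has2 stood beside lower follicle markers. Over the 3 ages in turn, 5 granulosa cell markers summed to 1901 to 2808, 1057 to 1637 and 1302 to 2359 CPM. The 6 oocyte markers summed to 149 to 363, 21.03 to 42.6 and 3.78 to 28.9 CPM, and all 6 were called lower at both later ages, as were 3 of 5 granulosa cell markers. Beside them, 5.51% of all tested genes were called lower at 18 months and 15.8% at 24 months. Replicate 3 at 2 months, the sample with the fewest Has2 counts of its age, also had the lowest granulosa and oocyte sums of its age. Their part in the Has2 level was not tested.

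The summed level of the synthases per kilobase of exon was 1.58 ± 0.155 at 2 months, 1.40 ± 0.207 at 18 months and 1.77 ± 0.219 at 24 months (CPM per kb). Has3 made up 60.4 to 77.4%, 65.1 to 82.3% and 57.6 to 71.9% of it. Has2 made up 2.79 to 12.4%, 3.27 to 4.13% and 0.669 to 5.08%. Has3 was thus the main part of the synthase RNA in each sample.

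Among the degrading genes, Hyal1 was higher and Hyal2 lower at 24 months than at 2 months, and Cemip varied most between samples. Hyal1, the lysosomal hyaluronidase, was at 4.03, 4.66, 4.10 and 4.08 CPM at 2 months. At 18 months it was at 5.24, 4.54 and 6.83 CPM, and at 24 months at 6.16, 7.34 and 7.09 CPM. All 24 month samples lay above all 2 month samples, while 18 months overlapped with both. Hyal1 rose by 24 months, by 0.70 in log2 terms (SE 0.191), which passed the test (edgeR adjusted p = 0.0201). The values at 18 months against 2 months (0.39, SE 0.192, edgeR adjusted p = 0.207) and at 24 against 18 months (0.31, SE 0.206, edgeR adjusted p = 0.601) did not pass.

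Leaving out 2 month replicate 1, 24 month replicate 2 or 24 month replicate 3 ended the Hyal1 call (edgeR adjusted p = 0.0589, 0.0689 and 0.0575). The log2 fold change stayed between 0.65 and 0.79 whichever sample was left out. Of the exon bases of Hyal1, 50.8% are shared with the acetyltransferase gene listed as Nat6 (Naa80 in GENCODE M21) on the same strand, so reads there are uncertain. Nat6 itself went from 15.8 ± 0.942 CPM at 2 months to 19.4 ± 0.681 CPM at 24 months (log2 fold change 0.30, SE 0.0983, edgeR adjusted p = 0.0388).

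Hyal2, the hyaluronidase anchored at the cell surface, was at 43.1, 49.9, 35.4 and 53.9 CPM at 2 months. It was at 34.4, 37.2 and 38.8 CPM at 18 months and at 35.7, 33.3 and 32.9 CPM at 24 months. The older samples sat at the lower edge of the 2 month range, with 2 month replicate 3 among them. Hyal2 fell from 45.6 ± 8.10 to 34.0 ± 1.51 CPM by 24 months, which is -0.42 in log2 terms (SE 0.138) and passed (edgeR adjusted p = 0.0387). At 18 months the log2 value was -0.31 (SE 0.138, edgeR adjusted p = 0.168). For the 24 month call, leaving out 1 sample ended it in 8 of 10 fits (edgeR adjusted p = 0.0504 to 0.135), the exceptions being 2 month replicate 3 (0.00843) and the summed 18 month sample (0.0486). Scaling by library totals alone also ended it (log2 fold change -0.25, edgeR adjusted p = 0.292).

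Cemip, the secreted hyaluronan-binding protein, had the highest mean CPM of the members at every age. Per kilobase of exon it had the highest mean at 2 and 18 months. It was at 280, 363, 184 and 475 CPM at 2 months. At 18 months replicates 1 and 2 had 824 and 553 CPM, the highest of all samples, and the summed sample had 169 CPM. At 24 months it was at 124, 160 and 55.1 CPM. The 24 month samples all lay below every younger sample, and the 18 month samples spanned a 4.88-fold range. That range was far wider than counting error, as the counts were 2545 to 23241 and the coefficient of variation was 63.9% against 1.28% from counting.

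From 2 to 24 months the log2 fold change of Cemip was -1.53 (SE 0.555, edgeR adjusted p = 0.0571), just short of the threshold. From 18 to 24 months it was -2.19 (SE 0.592, edgeR adjusted p = 0.435), and from 2 to 18 months 0.66 (SE 0.527, edgeR adjusted p = 0.434). For 2 to 24 months it passed with DESeq2 (adjusted p = 0.0101), with limma-voom (0.0339), with a replicate block in edgeR (0.0236), with only the 2 ages in the fit (0.0318), without 2 month replicate 3 (0.0491) and without the summed 18 month sample (0.0259). For 18 to 24 months it passed with DESeq2 alone (adjusted p = 0.0161). Over the 3 ages in turn, 4 markers of theca and luteal steroid cells summed to 17136 to 40734, 12973 to 21564 and 2462 to 12671 CPM. Of these 4 markers, 2 were called lower at 24 months, beside 15.8% of all tested genes. Of the 13 marker lists, this one had the highest correlation with Cemip over the 10 samples (r = 0.61, and 0.26 with the age means removed). Replicate 3 at 2 months had the highest steroid cell sum (40734 CPM) and the lowest Cemip of its age. The part of these cells in the Cemip level was not tested.

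For Tmem2 no difference between ages was detected. It was at 29.1, 32.8, 28.7 and 33.1 CPM at 2 months, at 28.6, 37.7 and 30.6 CPM at 18 months and at 27.4, 28.1 and 40.0 CPM at 24 months. The ranges of the ages overlapped. In the 24 month group 2 samples lay just below the 2 month range and replicate 3 above it, and 18 month replicate 2 also lay above it. The log2 fold change was 0.063 (SE 0.157) at 18 months and 0.042 (SE 0.157) at 24 months, with edgeR adjusted p = 0.824 and 0.850, and its sign turned when single samples were left out (-0.14 to 0.15 at 24 months).

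Of the 7 tested members, none was called at 18 months against 2 months (1 at an unadjusted p under 0.05, and none by DESeq2), where 11.6% of all tested genes were called, 6.04% higher and 5.51% lower. At 24 months against 2 months 2 of 7 were called, 1 higher and 1 lower, where 35.0% of all genes were, 19.2% higher and 15.8% lower. Between 18 and 24 months none was called by edgeR (1 at an unadjusted p under 0.05, and 1 by DESeq2), where 0.00492% of genes were. The median log2 fold change of the 7 was -0.050, 0.035 and 0.11 in these comparisons, beside 0.0073, 0.033 and 0.026 over all genes. Against 2 months the members' share of calls in edgeR was thus no larger than that of all genes. For 24 against 2 months, DESeq2 called 3 of 7 members and 8339 of all genes, and limma-voom 5 of 7 and 9806. Has2, which entered the test mainly through its 2 month counts, was among the 5 called by limma-voom. Without 2 month replicate 3, edgeR called 3 of 7 and 6233 of all genes. The comparisons with 2 months share those 4 samples.

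**Figure D3:**
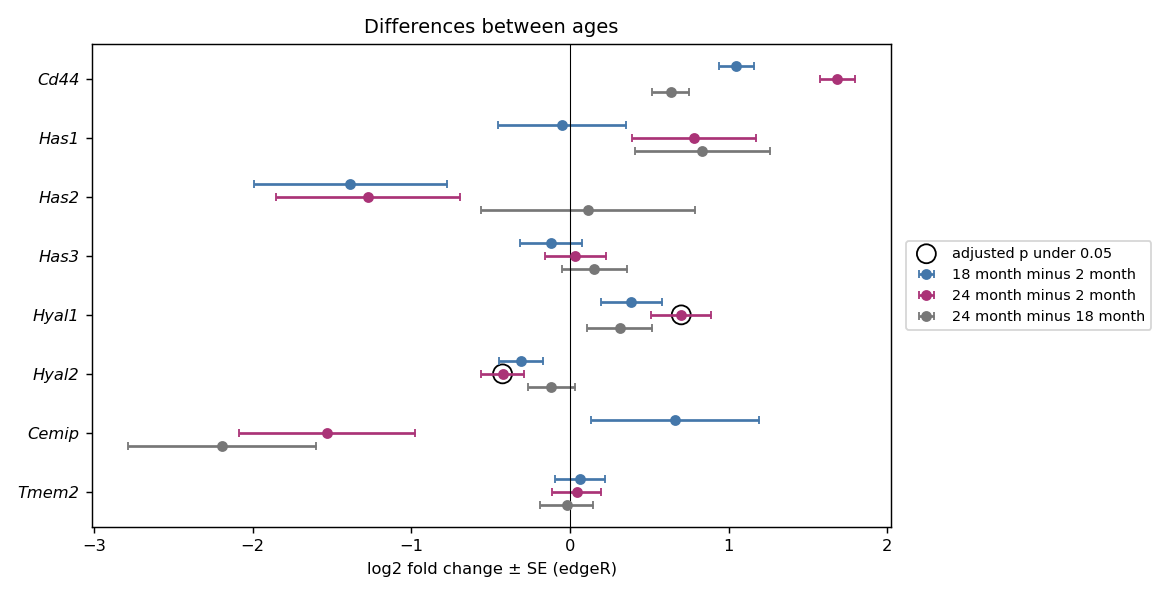
Log2 fold change with SE from edgeR for each member in the 3 comparisons between ages, with circles around tested values at an adjusted p under 0.05 (Cd44 was not tested). The circled points are Hyal1 at 0.70 and Hyal2 at -0.42, both for 24 against 2 months, and the widest bars belong to Has2 and Cemip.

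Levels of different genes were compared per kilobase of exon (GENCODE M21). At 2 months the order of mean CPM per kb was Cemip (26.6), Hyal2 (13.8), Tmem2 (3.63), Cd44 (2.24), Hyal1 (1.12), Has3 (1.11), Has1 (0.332) and Has2 (0.134). The ranges of Cemip and Hyal2 overlapped, as did those of Hyal1 and Has3, and the other neighbours did not overlap. Because 50.8% of the Hyal1 exon bases are shared with Nat6, the level of Hyal1 per kilobase is uncertain. So is its place beside Cd44 and Has3. At 18 months Cd44 (4.64) stood above Tmem2 (3.79) in every sample, and no neighbours overlapped. At 24 months Hyal2 (10.3) was followed by Cemip (9.22), Cd44 (7.21), Tmem2 (3.74), Hyal1 (1.82), Has3 (1.14), Has1 (0.572) and Has2 (0.0567), with Cemip overlapping both of its neighbours. Cd44 thus stood below Tmem2 at 2 months and above it later, and Cemip was first at 2 and 18 months only.

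Over the 3 ages in turn, the 4 degrading genes together were at 45.2 ± 12.8, 58.5 ± 26.0 and 25.1 ± 3.72 CPM per kb. The 24 month samples (21.1 to 28.4) lay below all younger ones (30.2 to 82.5). Cemip made up 49.7 to 64.5%, 44.5 to 81.6% and 21.4 to 46.0% of this sum. Hyal2 made up 27.2 to 35.6%, 12.7 to 38.1% and 35.6 to 47.4%. Hyal1 and Tmem2 held 1.68 to 8.92% and 4.07 to 22.3% of it over all samples. The Hyal1 share is uncertain because of the exon bases shared with Nat6.

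**Figure D4:**
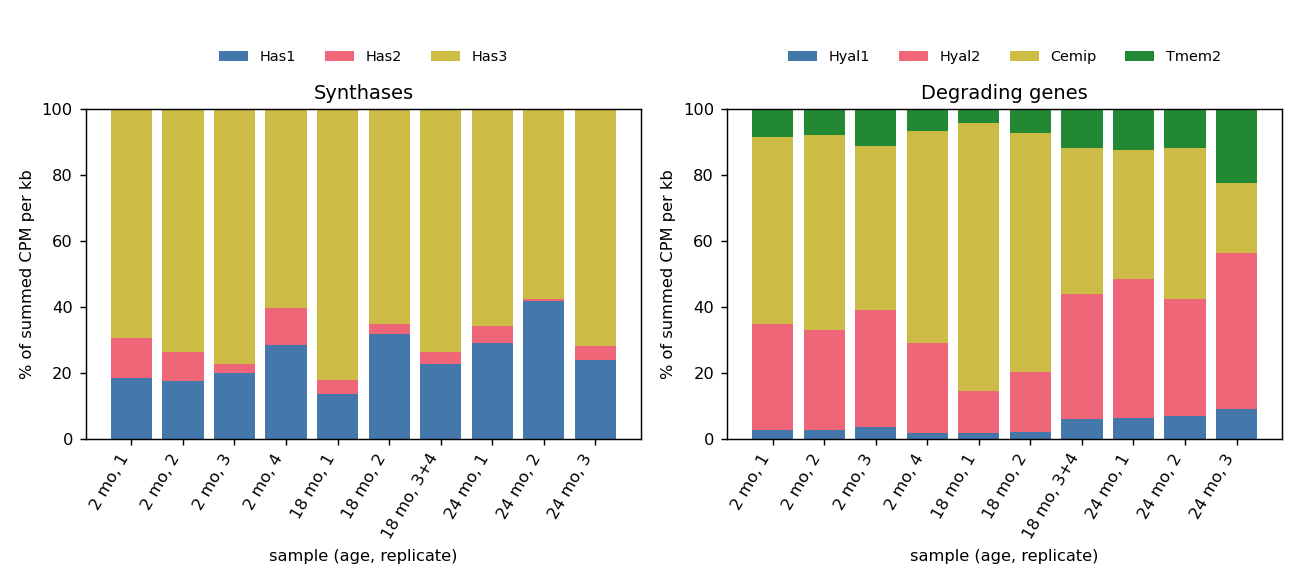
Share of each synthase (left) and of each degrading gene (right) in the summed CPM per kb of its group, in percent, for each of the 10 samples named by age in months and replicate. Has3 is the largest part of the synthases in each sample, and Cemip ranges from 21.4 to 81.6% of the degrading genes.

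Other genes of hyaluronan supply, binding and breakdown were counted in 5 lists of 53 genes, of which 45 passed the filter. Against 2 months, 7 were higher and 2 lower at 18 months (20.0% of those tested, beside 11.6% of all genes), and 9 were higher and 6 lower at 24 months (33.3%, beside 35.0%). Of all genes, 6.04% were higher and 5.51% lower at 18 months, and 19.2% higher and 15.8% lower at 24 months. The counts of each list below stand beside these shares. Between 18 and 24 months none was called by edgeR, with 8 at an unadjusted p under 0.05 and 2 by DESeq2. The median log2 fold change was 0.053 at 18 months and 0.13 at 24 months, beside 0.0073 and 0.033 over all genes. The lists were drawn up with earlier results of these data known.

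In the supply of nucleotide sugars, 1 of 7 genes was lower at both later ages and none was higher. Gfpt2, an isoform of the enzyme that commits glucose to hexosamines, fell from 38.0 ± 3.03 CPM at 2 months to 22.1 ± 3.20 at 18 months and 18.9 ± 0.977 at 24 months. Its log2 fold changes were -0.78 (SE 0.121, edgeR adjusted p = 0.0117) and -1.01 (SE 0.122, edgeR adjusted p = 0.00181). Gfpt1, the more abundant isoform, had 183 ± 19.1, 158 ± 18.8 and 147 ± 15.3 CPM at the 3 ages. Its log2 fold change of -0.32 (SE 0.124) from 2 to 24 months did not pass (edgeR adjusted p = 0.0722). From 18 to 24 months neither gene was called (edgeR adjusted p = 0.787 for Gfpt1 and 0.557 for Gfpt2). Both Gfpt2 calls held in all 18 alternative fits.

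Of the other degradation enzymes, 4 of 8 were tested, with 1 called higher and none lower at each later age against 2 months. Hexa, a subunit of a lysosomal enzyme that trims sugar chains, had 138 ± 14.8, 151 ± 27.1 and 153 ± 12.7 CPM at the 3 ages, and none of its comparisons passed (edgeR adjusted p = 0.573 for 18 against 2 months, 0.404 for 24 against 2 months and 0.961 for 24 against 18 months). The sperm and testis hyaluronidases Spam1 and Hyal5, with Hyal4 and Hyal6, did not pass the filter.

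Of 7 other receptors, 2 were higher and 1 lower at 18 months, and 3 were higher and 2 lower at 24 months. The toll-like receptors Tlr4 and Tlr2, innate immune receptors that hyaluronan fragments have been reported to engage, rose from 6.14 ± 0.842 to 15.7 ± 2.91 and 17.9 ± 3.97 CPM and from 3.48 ± 0.595 to 7.62 ± 1.10 and 8.19 ± 0.520 CPM. Their log2 fold changes at 24 months were 1.54 (SE 0.201) and 1.23 (SE 0.192), with edgeR adjusted p = 0.00209 and 0.00295. The remaining called genes are named after their values were seen. Hmmr, a hyaluronan-binding protein of the mitotic spindle, fell from 16.1 ± 4.26 to 4.20 ± 1.38 and 4.07 ± 2.02 CPM. Lyve1, the hyaluronan receptor of lymphatic vessels and some macrophages, rose to 21.3 ± 5.29 CPM at 24 months from 10.9 ± 4.32. Stab2, an endothelial receptor that clears hyaluronan, fell from 46.3 ± 35.3 to 9.24 ± 2.32 CPM at 24 months. Stab1, a scavenger receptor of macrophages and the most abundant of the list, had 111 ± 28.9, 184 ± 34.3 and 154 ± 37.7 CPM at the 3 ages. No Stab1 comparison passed, with edgeR adjusted p = 0.0662 for 18 against 2 months, 0.135 for 24 against 2 months and 0.707 for 24 against 18 months. Single samples ended some of these calls. The Hmmr call at 18 months needed 2 month replicates 1, 2 and 4, 18 month replicate 2 and the summed sample (edgeR adjusted p of up to 0.0818 without one of them). The Lyve1 call needed 2 month replicates 1 and 2 and 24 month replicate 2 (up to 0.123 over all alternatives), and the Stab2 call 24 month replicate 3 (up to 0.0613).

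Among matrix partners, 12 of 16 genes were tested, none was called at 18 months and 2 were higher at 24 months. Acan, the cartilage proteoglycan aggrecan, rose from 1.16 ± 0.392 to 23.4 ± 18.2 CPM (log2 fold change 4.32, SE 0.758, edgeR adjusted p = 0.00452). Bcan, the proteoglycan brevican, rose from 6.70 ± 1.81 to 23.3 ± 12.0 CPM (1.80, SE 0.381, edgeR adjusted p = 0.00833). Itih5, of the family whose heavy chains are linked to hyaluronan, was the most abundant at 586 ± 35.9, 705 ± 201 and 644 ± 247 CPM. Tnfaip6, which links those chains in the cumulus matrix and was added after its values were seen, had 2.23 ± 1.44 CPM in the youngest group and 1.30 ± 0.600 CPM in the oldest, which did not pass (edgeR adjusted p = 0.264).

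Of 15 genes that bind, cut or splice Cd44, 4 were higher at 18 months, and 3 were higher and 3 lower at 24 months. Srgn, a leukocyte proteoglycan that binds Cd44, rose from 11.1 ± 1.49 to 21.7 ± 2.88 and 27.9 ± 2.05 CPM, with log2 fold changes of 0.97 (SE 0.141, edgeR adjusted p = 0.0106) and 1.34 (SE 0.141, edgeR adjusted p = 0.00138). Mmp9, a protease that docks on Cd44, rose from 5.01 ± 1.14 to 27.4 ± 15.2 CPM at 18 months (2.45, SE 0.488, edgeR adjusted p = 0.0185) and was at 9.80 ± 5.35 CPM at 24 months. Adam17, a sheddase, fell from 135 ± 7.74 to 87.6 ± 8.04 CPM at 24 months (-0.62, SE 0.120, edgeR adjusted p = 0.00591).

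The other called genes of that list are named after their values were seen. Cd74 and the receptor kinase Met were higher at both later ages, at 341 ± 70.9 and 366 ± 44.8 CPM for Cd74 against 152 ± 70.2, and at 15.8 ± 6.08 and 20.9 ± 10.7 CPM for Met against 5.54 ± 0.803. The membrane linker Msn and the ligand Spp1 were lower at 24 months, at 272 ± 33.4 against 485 ± 108 CPM and 8.60 ± 5.13 against 90.7 ± 67.3 CPM. The 18 month calls of Cd74, Met and Mmp9 and the 24 month calls of Msn and Spp1 were each lost in fits that left out single samples (adjusted p of up to 0.110, 0.123, 0.0642, 0.139 and 0.125 over all alternatives). Cd74 and Srgn are expressed by leukocytes, whose marker sums are given above beside Cd44, and their part in these values was not tested.

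**Figure D5:**
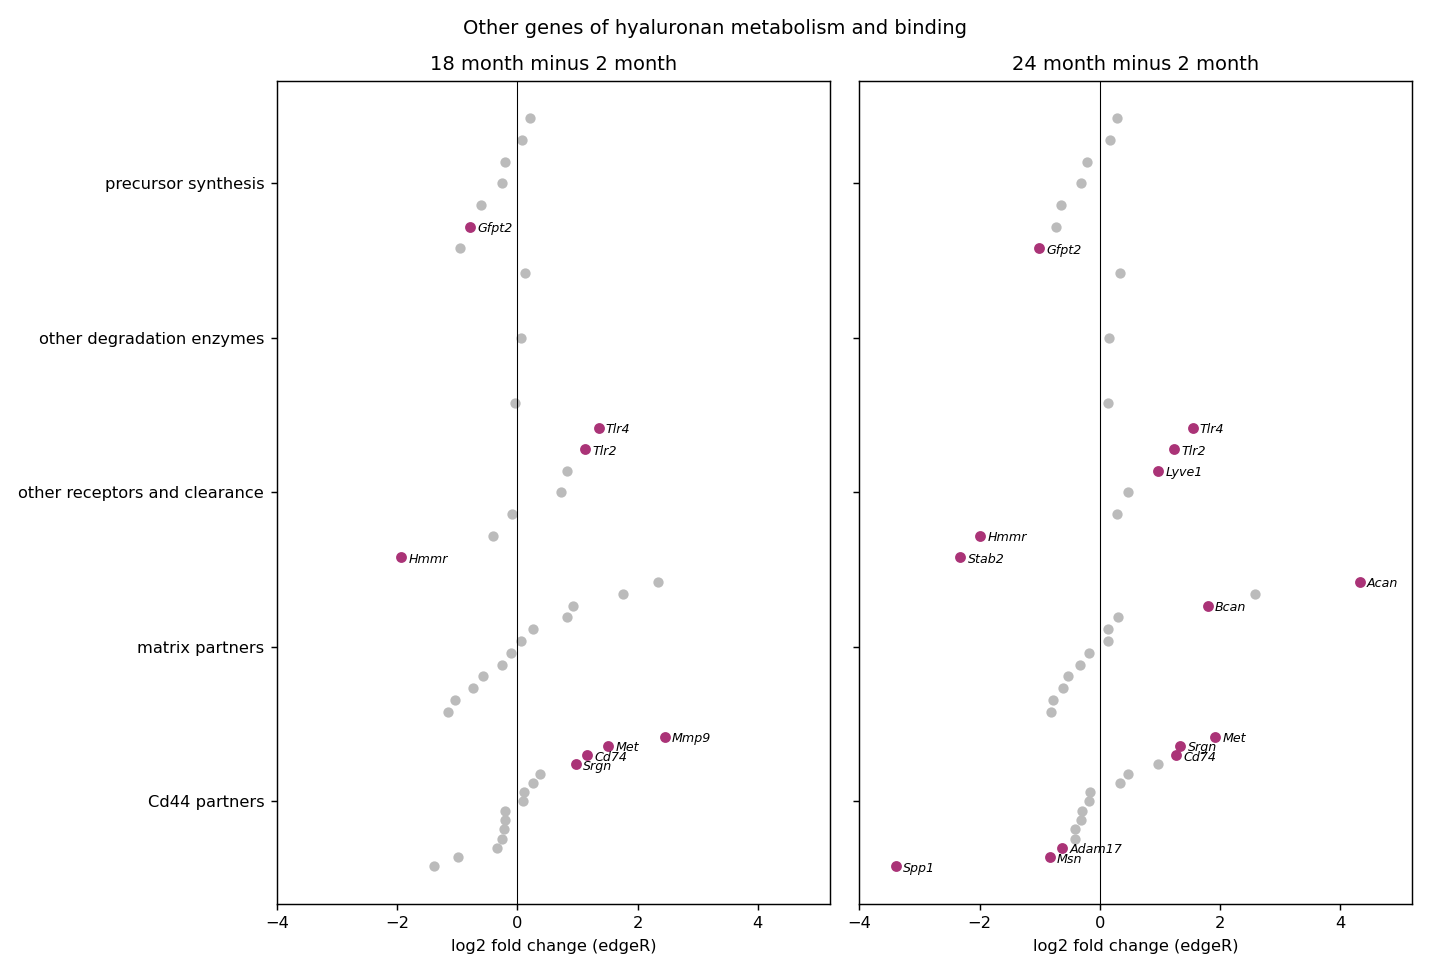
Log2 fold change (edgeR) of tested genes of the 5 lists at 18 months (left) and 24 months (right) against 2 months, 1 point per gene, ordered by value within each list. Named points in colour passed at an adjusted p under 0.05, with Acan the highest at 4.32 and Spp1 the lowest at -3.40.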

How the data were processed

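Per the deposited table, the authors gave raw counts of reads by gene for 11 ovary libraries, made with a stranded mRNA kit. Per the submitters' processing notes the authors' workflow names FastQC, cutadapt, STAR, HTSeq and mm10. For tool versions, annotation and strand setting, the sources used here give nothing, so reads of overlapping genes are uncertain. Counts of 18 month replicates 3 and 4 were summed. Genes were kept by filterByExpr (minimum count 10 in a library of median size, total 15), scaled by TMM and tested with edgeR 4.0.16 (R 4.3.3), glmQLFit with robust estimation and glmQLFTest, two-sided, all 3 ages in 1 model with 7 residual degrees of freedom. P-values were adjusted by Benjamini-Hochberg over all 20331 genes at 0.05. The SE is the log2 fold change over the square root of F. Log2 CPM used a prior count of 2. Exon lengths are merged exons of GENCODE M21.

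Members and lists were chosen with earlier results of these data known. All members were named. From each list and comparison the 2 called genes of smallest p were named, or the most abundant gene where none was called, and the 5 genes most like Cd44. Some results are not reported here, though counts over lists include them.

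For 24 and 18 months, same-numbered samples had correlated deviations from the age means (0.398, 0.283 and 0.148), above 0.1 in each pair. The tests given above still used no pairing, and a replicate block was run only as an alternative fit. Different-numbered pairs gave -0.339 to 0.144. For comparisons with 2 months the same-numbered values were -0.109 to 0.0741, and the numbers were not taken as pairs. The labels do not say what a number shares.

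Alternatives were DESeq2 size factors, library totals alone, no filter, DESeq2 1.42.0, limma-voom (limma 3.58.1) with quality weights, all libraries apart, only the ages compared, a replicate block and leaving out each of the 10 samples. The test was run on simulated counts first.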

Additional observations from a re-analysis of the deposited data

Results flagged for a closer look

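Among the 4 samples of 2 months, the highest value of Hyal1 stood apart from the other 3. It was 4.66 CPM in replicate 2, and its distance to the next sample was 0.891 of the whole range, above Dixon's 95% critical value for 4 samples. The coefficient of variation of the 4 values was 7.02%, however, below the 9.02% that counting alone gives. All 8 members were looked at in this way, and chance marks about 1 in 20 such groups. The later ages have 3 samples each and were not looked at.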

How the results depend on the processing

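Cd44 was higher at each later age in all 18 alternative fits, 10 of which left out 1 sample. Since Cd44 was chosen for its rise in these same counts, the fits describe its value and are no test of it. Its log2 fold change ranged over 0.95 to 1.09, 1.58 to 1.72 and 0.62 to 0.66 (18 against 2, 24 against 2 and 24 against 18 months) with 1 sample left out, and was 1.87 for 24 against 2 months with library totals alone. That scaling moved the median of all genes to 0.0965, 0.217 and 0.123, and the share of calls that were higher from 52.3 to 66.7% at 18 months and from 54.9 to 73.0% at 24 months. Genes called at 18 against 2 months were 2349, and 4052 with DESeq2, 4000 with all libraries apart, 1034 with the replicate block, 375 without the summed 18 month sample and 382 to 2748 without another (382, 614 and 687 without 2 month replicates 1, 2 and 4, 730 without 18 month replicate 2). For 24 against 2 months 7120 became 4283 to 7467 with 1 sample left out, the lowest without 24 month replicate 3, 2 month replicate 1 (4537) and 24 month replicate 2 (4656). For 24 against 18 months 1 gene became 194 with DESeq2, 0 with library totals, with the replicate block and with only these ages, and 0 to 2 with 1 sample left out. Members called beside Cd44 were 0 to 1 at 18 months with 1 sample left out. At 24 against 2 months they were 2, and 1 with library totals, 0 without the filter, 5 with limma-voom, 1 with the replicate block and 0 to 3 with 1 sample left out. At 24 against 18 months DESeq2 called 1. The wider genes called at 18 months were 9, and 14 with DESeq2, limma-voom, all libraries apart or only the 2 ages, and 4 to 13 with 1 sample left out (4 without 2 month replicate 1 or 2, 5 without 18 month replicate 2 or the summed sample). At 24 months 15 became 25 with limma-voom and 12 to 19 with 1 sample left out, and DESeq2 called 2 at 24 against 18 months.

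The replicate block ended the 24 against 2 month calls of Hyal1 (log2 fold change 0.68, edgeR adjusted p = 0.0692) and Hyal2 (-0.33, 0.119), where the numbers are no pairs, and changed no member's call for 24 against 18 months. Signs turned only for differences that were not called. For Has1 at 18 months the value was 0.044 with library totals, 0.031 with the replicate block and -0.35 to 0.29 with 1 sample left out. For Has3 at 24 against 2 months it was -0.031 with the replicate block and -0.050 to 0.11 with 1 sample left out. Tmem2 gave -0.098 with limma-voom at 24 against 2 months and 0.083 with library totals at 24 against 18 months, and with 1 sample left out -0.066 to 0.16, -0.14 to 0.15 and -0.21 to 0.11 in the 3 comparisons. Has2 at 24 against 18 months gave -1.16 with limma-voom and -0.31 to 0.59 with 1 sample left out. The causes were not tested. Depth limits Has2 most, at 2 to 24 counts per sample.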

Other observations

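Genes close to Cemip were looked up after its values were seen, as a description over 10 samples that share the age steps. The nearest by log2 CPM was Tnc (r = 0.941), tenascin C of the extracellular matrix, at 620 ± 264, 1953 ± 1436 and 251 ± 281 CPM at 2, 18 and 24 months. With the age means removed the nearest were Igf1 (r = 0.966), a growth factor, and Loxl3 (r = 0.959), a lysyl oxidase. Igf1 was at 139 ± 43.5, 182 ± 96.5 and 106 ± 41.6 CPM and Loxl3 at 30.7 ± 4.91, 42.8 ± 21.5 and 25.4 ± 5.91 CPM. In each of them, as in Cemip, the SD was largest at 18 months.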
